A study of Homo sapiens with 7 samples.

Results

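The genes described here are the clustered histone genes, those whose symbols begin with HIST1H, HIST2H, HIST3H or HIST4H and that lie on a numbered chromosome in the deposited expression table. There were 89 of them among 63655 rows. They comprised 8 linker H1, 22 H2A, 26 H2B, 17 H3 and 16 H4 genes, of which 70 were coding genes and 19 were annotated or named as pseudogenes. By cluster, 67 carried HIST1 symbols, 17 HIST2, 4 HIST3 and 1 HIST4. A further 17 histone rows on patch scaffolds, all listed at 0, were left out.

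The study lowered CNBP, a small protein with CCHC zinc fingers that recognizes G-rich sequence, in HEK293, a human embryonic kidney cell line. All 7 samples were HEK293 cells carrying CNBP with a FLAG-HA tag. The labels give 3 samples with a control knockdown and 4 with a CNBP knockdown, and name neither the siRNA sequences, the time after treatment nor whether the tagged line was 1 clone. The measurement was RNA sequencing of total RNA with a directional kit. The sources used here do not say whether polyadenylated RNA was selected, a choice that bears on histone transcripts because most of them carry no poly(A) tail.

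The table gives each gene 1 FPKM value (fragments per kilobase of transcript, after library scaling) in a column headed OE and another in a column headed siRNA. The name of the siRNA column and the design text are the basis for taking it as CNBP knockdown. The labels do not explain OE, so every fold is given as siRNA against OE; were OE to mean overexpression of CNBP, a fold would span overexpression and knockdown together. No value per sample is in the table, so no SD, n or test across samples could be computed, depth is unknown, and the only p- and q-values are those in the authors' deposited table. The labels do not say that samples were separate cultures, so these may measure technical spread. The CNBP transcript was listed at 579.8 FPKM under OE and 45.5 FPKM under siRNA (q = 0.00791 in the authors' deposited table). Of genes known in HEK293 cells, VIM was at 398 and 413 FPKM in OE and siRNA, KRT18 at 34.5 and 25.03 and PAX2 at 3.43 and 3.71, while the neurofilament gene NEFM was at 0.262 and 0.277.

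Core histones H2A, H2B, H3 and H4 form the protein spool around which DNA is wrapped, and linker histone H1 binds where the DNA enters and leaves it. Most of their genes lie in clusters, lack introns and are copied mainly while the cell replicates its DNA, when new chromatin must be assembled. Their messages usually end in a conserved stem-loop in place of a poly(A) tail; stem-loop binding protein and the U7 small nuclear ribonucleoprotein direct the cut that forms this end. In a bulk sample, fewer cells in the replicating phase and less histone RNA per cell cannot be told apart.

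The promoters of the families differ in their short motifs, and a stretch of 130 bases upstream of the annotated start is shown for 6 genes, chosen as the coding member called and strongly expressed or changed members of each family. Sequences are from RefSeq (GRCh38.p14), 5′ to 3′ on the strand of the gene. Capitals mark every match on either strand to the TATA box TATAAA or its core TATAA, the CCAAT box CCAAT, the octamer ATTTGCAT, the H4 promoter element GGTCCG and the H1 promoter box AAACACA. HIST1H1D and HIST1H1E are linker genes on opposite strands of chromosome 6, and both hold the H1 box, a CCAAT box and a TATA box in the same order.
HIST1H1D (chr6:26234988-26235117, minus strand): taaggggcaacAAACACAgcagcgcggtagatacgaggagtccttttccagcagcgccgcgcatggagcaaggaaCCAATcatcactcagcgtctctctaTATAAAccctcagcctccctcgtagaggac
HIST1H1E (chr6:26156199-26156328, plus strand): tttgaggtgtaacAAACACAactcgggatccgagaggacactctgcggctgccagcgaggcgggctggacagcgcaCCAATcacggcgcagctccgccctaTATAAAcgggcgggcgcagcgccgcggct
HIST2H2AB (chr1:149887966-149888095, minus strand): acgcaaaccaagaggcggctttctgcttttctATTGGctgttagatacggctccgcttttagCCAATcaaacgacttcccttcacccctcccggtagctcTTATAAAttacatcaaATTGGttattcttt
HIST1H2BJ (chr6:27132796-27132925, minus strand): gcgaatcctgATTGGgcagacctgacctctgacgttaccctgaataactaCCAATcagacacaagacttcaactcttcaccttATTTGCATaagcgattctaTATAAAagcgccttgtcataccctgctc
HIST1H3B (chr6:26032100-26032229, minus strand): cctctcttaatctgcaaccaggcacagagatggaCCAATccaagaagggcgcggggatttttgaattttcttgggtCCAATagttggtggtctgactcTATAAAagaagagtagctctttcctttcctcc
HIST1H4B (chr6:26027284-26027413, minus strand): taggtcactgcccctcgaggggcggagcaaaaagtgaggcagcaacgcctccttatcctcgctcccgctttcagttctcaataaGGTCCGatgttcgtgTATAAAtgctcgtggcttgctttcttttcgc
The stretch of HIST1H2BJ holds the octamer between its CCAAT and TATA boxes, that of HIST1H3B holds CCAAT boxes in tandem, and that of HIST1H4B holds the H4 element just before its TATA box and no CCAAT box.

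The stem-loop is shown with 5 bases on either side, from GENCODE 29 transcript records, for 6 members that differ in stem or loop. It was not at the end of these records, which ran on for between 86 bases (HIST1H4B) and 1862 bases (HIST1H3E) after it. Capitals mark the 6-base arms of the stem, and the 4 loop bases between them are in lower case. Records were searched on their own strand for the arm GGCNCT, the loop TNTN and the arm AGNGCC in a row, where N is any base.
HIST1H2AC: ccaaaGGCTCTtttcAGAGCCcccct
HIST1H2BC: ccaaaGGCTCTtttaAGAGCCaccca
HIST1H2AG: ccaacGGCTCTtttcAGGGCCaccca
HIST1H3E: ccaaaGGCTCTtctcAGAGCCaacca
HIST1H4B: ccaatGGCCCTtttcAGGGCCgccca
HIST1H4I: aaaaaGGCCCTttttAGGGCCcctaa
The pattern was found in a record of 35 of the 89 members. The form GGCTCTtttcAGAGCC, as in HIST1H2AC, was in 18 members, the forms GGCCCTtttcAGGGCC and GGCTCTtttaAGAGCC in 5 each, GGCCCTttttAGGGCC and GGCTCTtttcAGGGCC in 3 each, and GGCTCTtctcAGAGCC in 1, HIST1H3E. By comparison, the longest coding record of 37 of 19684 genes, or 0.188%, held the pattern, and 29 of those 37 were clustered histone genes. A record can end before the stem-loop, so a record without the pattern says only that these letters are not in it.

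Histone messages were abundant and their levels were spread over 5 families. Of the 89 members, 54 averaged at least 1 FPKM over the 2 conditions, 42 at least 10 FPKM and 27 at least 100 FPKM. Only 55 had been tested in the authors' deposited table. A further 33 were marked as not tested and 1, HIST1H2AD, was marked LOWDATA, for a reason not given. At the other end, 21 coding members had a mean under 1 FPKM, 8 members were listed at 0 in OE and 4 of those at 0 in siRNA as well. The levels rested on few genes, since the 4 highest, HIST1H3B, HIST1H1C, HIST1H1E and HIST1H4C, made up 41.3% of the summed OE value.

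The expressed histone genes mostly had slightly lower values in siRNA than in OE. Among tested members averaging at least 10 FPKM, 35 of 41 were lower in siRNA, against a background of 41.8% of the 10457 tested genes at that level. Among those averaging at least 1 FPKM, 39 of 51 were lower against a background of 49.7% of 21820 tested genes, with a median of -0.16 beside 0.0027. At 10 FPKM or more the median log2 change, computed as log2((siRNA FPKM + 1)/(OE FPKM + 1)), which understates the change of low genes, was -0.21, beside 0.08 over all tested genes at that level. The changes were small: at that level 18 members were lower and 3 higher by at least 1.2-fold. The share of all tested genes past 1.2-fold was not computed, so these counts have no background. The quartiles of the log2 change over all tested genes at that level were -0.19 and 0.33. Summed over all 89 members, the level was 12772 FPKM in OE and 10956 FPKM in siRNA, or 1.17-fold lower.

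Few of these differences passed the authors' test. At q under 0.05, 1 member was called lower, HIST2H2AB, and 1 higher, HIST1H1PS1, against 0.782% of the 24822 tested genes called lower and 0.572% called higher. At an unadjusted p under 0.05 in the authors' deposited table, 12 of the 55 tested members were lower and 5 higher, where 6.41% of all tested genes were lower and 4.51% higher at that threshold.

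**Figure D1:**
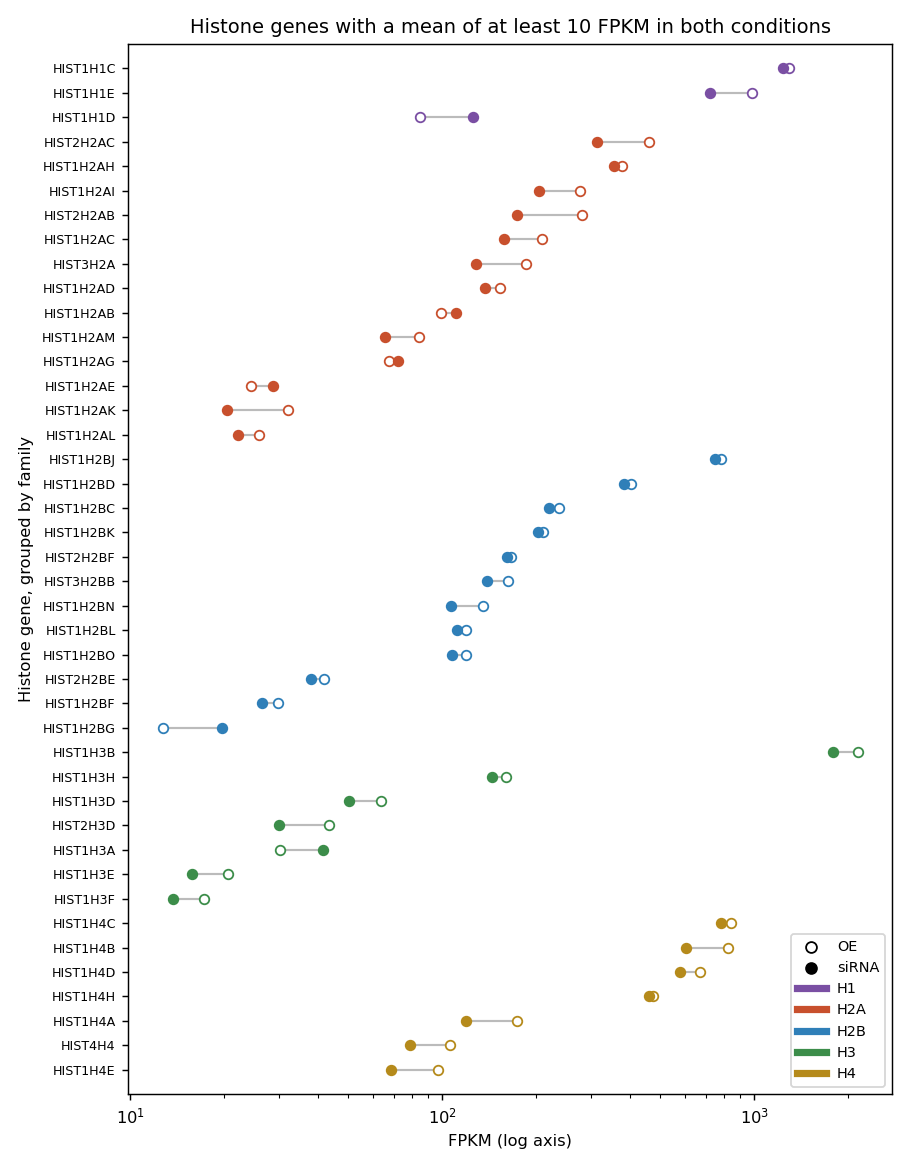
Each row is a histone gene averaging at least 10 FPKM, colored by family and ordered by level within it; the horizontal log axis is FPKM, with open circles for OE and filled circles for siRNA, 1 authors' value each and no error. Filled circles lie left of open ones in most rows, and the gap is wide in HIST2H2AB (279.6 and 173 FPKM) and narrow in HIST1H2BJ (782 and 747 FPKM).

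Among the linker histones, the total rested on HIST1H1C and HIST1H1E, which held 96.2% of the H1 sum in OE, and the family sum was 2369 FPKM in OE and 2089 FPKM in siRNA, 1.13-fold lower. HIST1H1C (chromosome 6, 26055968 to 26056699, hg19 as are all positions of members below), which encodes H1.2, was at 1294 FPKM under OE and 1233 FPKM under siRNA (p = 0.723 in the authors' deposited table). HIST1H1E (chromosome 6, 26156559 to 26157343), which encodes H1.4, was at 984 and 721 FPKM, 1.36-fold lower (p = 0.0174 and q = 0.278 in the authors' deposited table). HIST1H1D (chromosome 6, 26234440 to 26235216), which encodes H1.3, went the other way, with 85.1 FPKM in OE and 126 FPKM in siRNA, 1.48-fold higher, and missed the threshold at q = 0.0822 in the authors' deposited table. The 3 abundant linker genes thus did not share a direction.

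The other linker genes were low. HIST1H1T, the testis linker histone, was at 1.38 FPKM under OE and 2.68 FPKM under siRNA (q = 0.186 in the authors' deposited table). HIST1H1A, which encodes H1.1, was at 0.918 and 0.771 FPKM, and HIST1H1B, which encodes H1.5, was at 0.532 and 0.361 FPKM and was not tested. The member called higher, HIST1H1PS1 (chromosome 6, 26195794 to 26195999), is an H1 pseudogene that was listed at 0 in OE and at 4.55 FPKM in siRNA (q = 0.00791 in the authors' deposited table). Another H1 pseudogene of the same block, HIST1H1PS2, named after its values were seen, had the opposite direction, at 3.18 FPKM under OE and 0.775 FPKM under siRNA, and was not tested. With a 0 for HIST1H1PS1 in OE no fold is given, and the locus of HIST1H1PS1 is far shorter than those of the linker genes.

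H2A, which forms a dimer with H2B at the outer face of the nucleosome, had by count the most members past the unadjusted threshold. Of its 13 tested members, 6 were lower and 0 higher at that threshold. By share H1 was first, with 1 lower and 3 higher of 6 tested, and H4 had 4 lower and 0 higher of 10. The H2A sum was 2282 FPKM in OE and 1799 FPKM in siRNA, 1.27-fold lower. Of the 12 tested H2A members with at least 10 FPKM, 9 were lower, with a median log2 change of -0.38. HIST2H2AB fell, from 279.6 FPKM in OE to 173 FPKM in siRNA, or 1.62-fold lower (p = 0.00045 and q = 0.0388 in the authors' deposited table). Its deposited locus (chromosome 1, 149859019 to 149872351) is shared with BOLA1, a mitochondrial protein gene, which was at 15.3 and 9.59 FPKM; how reads were divided between them was not tested.

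HIST2H2AC, its neighbor on chromosome 1 (149858525 to 149858961), was the most abundant H2A gene, at 459 FPKM under OE and 313 FPKM under siRNA, 1.47-fold lower (q = 0.0839 in the authors' deposited table). HIST3H2A, from the small HIST3 cluster (chromosome 1, 228645065 to 228645560), was at 185 and 129 FPKM, 1.44-fold lower (q = 0.110 in the authors' deposited table). HIST1H2AK (chromosome 6, 27805658 to 27806117) was at 31.9 and 20.4 FPKM, 1.57-fold lower (p = 0.0071 in the authors' deposited table). These H2A genes with the lowest p-values therefore came from 3 different clusters.

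HIST1H2AI was at 276 FPKM under OE and 205 FPKM under siRNA (p = 0.0135), and HIST1H2AC at 208 and 157 FPKM (p = 0.0198), both p-values from the authors' deposited table. Neither passed after adjustment. HIST1H2AM was lower too, at 84.0 and 65.5 FPKM, as was HIST1H2AL at 25.9 and 22.0 FPKM, and HIST1H2AH stood close to equal at 377 and 355 FPKM. Of the tested H2A genes averaging at least 1 FPKM, 4 were higher in siRNA. HIST1H2AB was at 99.4 and 111 FPKM, HIST1H2AG at 67.5 and 71.9 FPKM HIST1H2AE at 24.3 and 28.5 FPKM and the lowly expressed HIST2H2AA3 at 6.44 and 8.53 FPKM, 1.32-fold higher, none with an unadjusted p under 0.05. HIST1H2AD, marked LOWDATA and without a test, was at 153 and 137 FPKM and shares its locus with HIST1H3D.

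H2B, the partner of H2A in the dimer, had the ratio of sums nearest to 1. The family sum was 2431 FPKM in OE and 2274 FPKM in siRNA, 1.07-fold lower. Of 12 tested members with at least 10 FPKM, 11 were lower but by little, with a median log2 change of -0.10, and none was lower at an unadjusted p under 0.05. HIST1H2BJ (chromosome 6, 27093676 to 27100541) was the most abundant, at 782 FPKM under OE and 747 FPKM under siRNA, 1.05-fold lower.

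Next in level were HIST1H2BD at 403 FPKM under OE and 383 FPKM under siRNA, HIST1H2BC at 236 and 219 FPKM, HIST1H2BK at 211 and 202 FPKM and HIST2H2BF at 166 and 162 FPKM. None of these 4 moved by as much as 1.2-fold. HIST3H2BB was at 162 and 139 FPKM, HIST1H2BL at 119 and 112 FPKM, HIST1H2BO at 119 and 108 FPKM, HIST2H2BE at 41.6 and 38.0 FPKM and HIST1H2BF at 29.6 and 26.5 FPKM. A wider gap among the lower members was that of HIST1H2BN (chromosome 6, 27806323 to 27823487), at 135 and 107 FPKM, 1.27-fold lower. HIST1H2BG (chromosome 6, 26216428 to 26216872) was the exception, at 12.7 FPKM under OE and 19.7 FPKM under siRNA, 1.55-fold higher (p = 0.0214 and q = 0.304 in the authors' deposited table). At low levels, HIST1H2BB was at 3.06 and 1.81 FPKM and HIST1H2BI at 5.13 and 3.72 FPKM.

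H3, which carries many of the regulatory marks on its tail, was dominated by HIST1H3B (chromosome 6, 26031817 to 26032288), the most abundant member of any family. It was at 2149 FPKM under OE and 1786 FPKM under siRNA, 1.203-fold lower (p = 0.149 in the authors' deposited table), and it held 86.3% of the H3 sum in OE. That sum was 2490 FPKM in OE and 2086 FPKM in siRNA, 1.19-fold lower. Of 7 tested members with at least 10 FPKM, 6 were lower, with a median log2 change of -0.32.

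HIST2H3D (chromosome 1, 149784826 to 149785236) was at 43.2 FPKM under OE and 29.97 FPKM under siRNA, 1.44-fold lower (p = 0.0259 and q = 0.335 in the authors' deposited table). HIST1H3A (chromosome 6, 26020718 to 26021186) was the exception, at 30.1 and 41.4 FPKM, 1.38-fold higher (p = 0.0388 and q = 0.401 in the authors' deposited table). HIST1H3H was at 160 and 144 FPKM, HIST1H3D at 63.8 and 50.3 FPKM, HIST1H3E at 20.6 and 15.8 FPKM and HIST1H3F at 17.3 and 13.6 FPKM, all lower and none with an unadjusted p under 0.05. HIST3H3, the testis-type H3 gene, was at 1.36 and 0.767 FPKM, and the pseudogene HIST1H3PS1 at 0.879 and 1.66 FPKM.

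H4, which pairs with H3 in the nucleosome's core, had the highest family sum, 3201 FPKM in OE and 2708 FPKM in siRNA, 1.18-fold lower. All 7 tested members with at least 10 FPKM were lower, with a median log2 change of -0.42, and 4 of them had an unadjusted p under 0.05. Their levels were spread more evenly than those of H3. HIST1H4C (chromosome 6, 26104104 to 26104518) was at 844 FPKM under OE and 784 FPKM under siRNA, HIST1H4D at 671 and 580 FPKM and HIST1H4H at 475 and 459 FPKM, none past the unadjusted threshold.

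HIST1H4B (chromosome 6, 26027124 to 26027480) was at 822 FPKM under OE and 604 FPKM under siRNA, 1.36-fold lower (p = 0.0101 in the authors' deposited table). HIST1H4A (chromosome 6, 26021907 to 26022278) was at 174 and 119 FPKM, 1.46-fold lower, and HIST1H4E (chromosome 6, 26204858 to 26206266) at 96.6 and 68.3 FPKM, 1.41-fold lower, both with q = 0.117 in the authors' deposited table. HIST4H4, the lone HIST4 gene (chromosome 12, 14920933 to 14924065), was at 106 and 78.6 FPKM, 1.35-fold lower (q = 0.274 in the authors' deposited table). HIST1H4J, below 10 FPKM, was at 9.13 and 6.81 FPKM. The pseudogene HIST1H4PS1 was at 1.94 and 5.33 FPKM, a higher value that missed the unadjusted threshold.

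**Figure D2:**
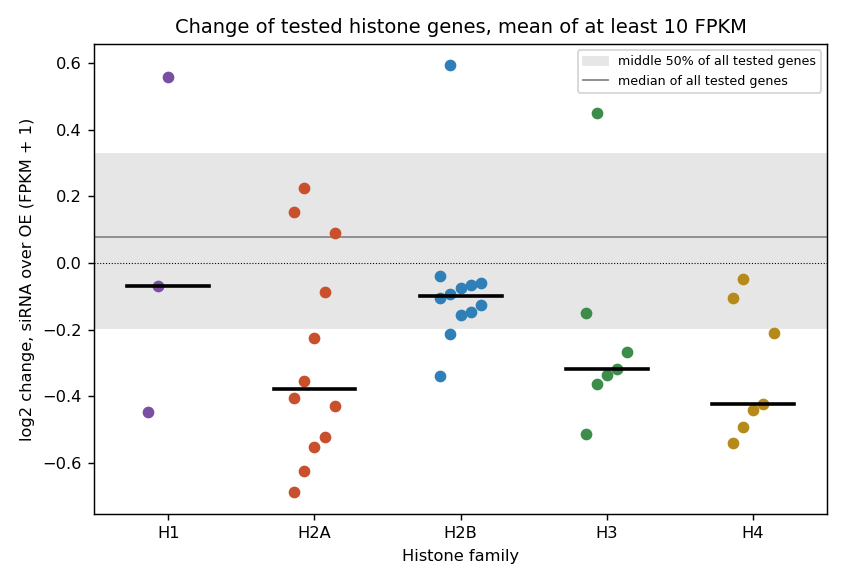
Each point is a tested histone gene averaging at least 10 FPKM; the vertical axis is the log2 change of FPKM + 1, siRNA over OE, and black bars are family medians. The gray band holds the middle 50% of all 10457 tested genes at that level, from -0.19 to 0.33, as a scale for single points and not for the medians. Of the 41 points, 35 lie below 0, and all 7 H4 points do.

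Many coding members were listed near 0 next to strongly expressed relatives, and several of these have near-identical copies between which reads may have been divided or dropped. HIST2H2AA3 had the values given above, while HIST2H2AA4, its copy on chromosome 1, was at 0.133 and 0.0914 FPKM. HIST2H4A was at 0.463 and 0.310 FPKM and its copy HIST2H4B was listed at 0 and 0.0141 FPKM. HIST2H3A was at 0.0510 and 0.0817 FPKM and its copy HIST2H3C at 0.0188 and 0.00396 FPKM. How the authors treated reads that match several genes is not given in the sources used here, so the levels of these copies are uncertain. A further source of uncertainty is the deposited locus, which was wider than 2000 bp for 26 members and the same as that of another gene for 18.

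By genomic cluster, most of the summed histone FPKM was listed for HIST1 on chromosome 6. HIST2 holds the near-identical copies named above, so its sum carries the uncertainty of their levels. The HIST1 sum was 11318 FPKM in OE and 9881 FPKM in siRNA, 1.15-fold lower. The HIST2 sum was 999.9 and 727 FPKM, 1.38-fold lower, the HIST3 sum 349 and 269 FPKM, 1.30-fold lower, and the HIST4 gene 1.35-fold lower. Among tested members with at least 10 FPKM, 27 of 33 HIST1 genes were lower, with a median log2 change of -0.15, and 5 of 5 HIST2 genes, with a median of -0.51. HIST2 and HIST1 differ in makeup as well as place: H2A genes accounted for 746 of the 999.9 FPKM of HIST2 in OE. Within H2A alone, the HIST1 sum was 1351 FPKM in OE and 1176 FPKM in siRNA (1.15-fold lower). The HIST2 sum of H2A was 746 and 494 FPKM (1.51-fold lower) and rested mainly on the neighbors HIST2H2AC and HIST2H2AB, the latter the member called lower. HIST2H2AA3, at a low level, was higher in siRNA. H2B in HIST2 was at 209 and 201 FPKM (1.04-fold lower). The difference between the clusters was not tested, because no value per sample was given.

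The HIST1 genes of chromosome 6 fall into 3 blocks parted by gaps of over 200000 bases. The first (25726291 to 26322520) holds 42 members, and 16 of its 21 tested members with at least 10 FPKM were lower, with a median log2 change of -0.16. The second (27093676 to 27115317) holds 5 members, of which 3 of 4 were lower, with a median of -0.06. The third (27774853 to 27861669) holds 18 members, and 8 of 8 were lower, with a median of -0.28. Members higher in siRNA with an unadjusted p under 0.05, 5 in all, were all in the first block and include the pseudogene HIST1H1PS1. That block held 27 of the 55 tested members, and 5 of its members were lower at the same threshold. Of all tested genes, 4.51% were higher and 6.41% lower at that p. The remaining 2 HIST1 members are pseudogenes on chromosome 13 and were not tested.

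**Figure D3:**
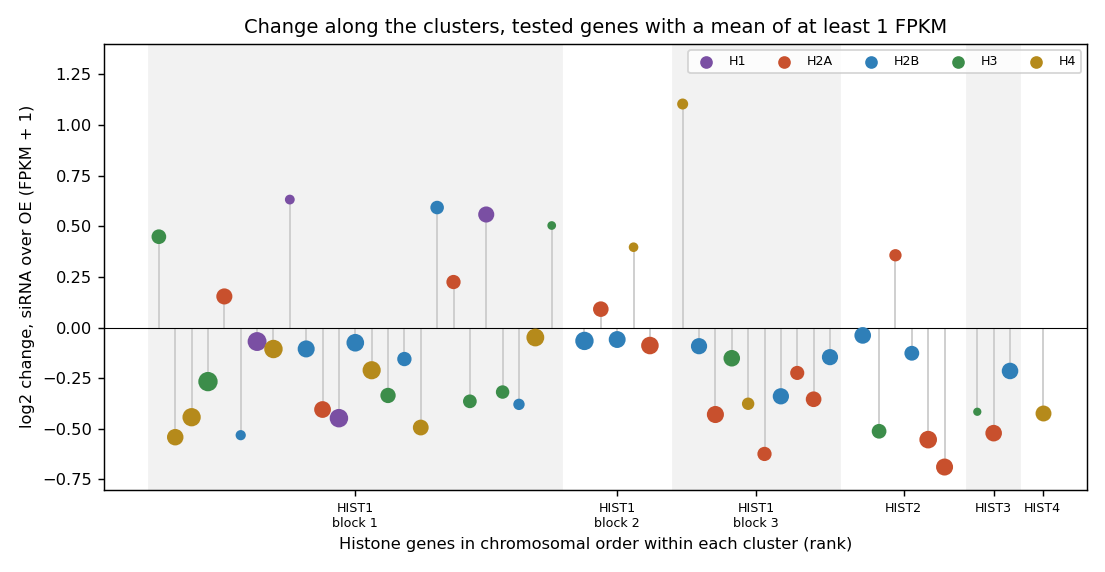
Tested histone genes averaging at least 1 FPKM are placed in chromosomal order (rank, horizontal axis) within each cluster; the vertical axis is the log2 change of FPKM + 1, siRNA over OE, point size grows with level and color gives the family. HIST1H1PS1, listed at 0 in OE, is not drawn; lower and higher genes are interspersed in HIST1 block 1, and in HIST2 the lowest point is HIST2H2AB at -0.69.

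H2A and H2B genes often start back to back and share the stretch between them. Among the 66 members with a RefSeq promoter, 11 such pairs start within 500 bases of each other on opposite strands. They are 194 to 248 bases apart, with a median of 236. HIST1H2AH had no promoter there and could not be paired. Its deposited locus begins at 27114861, near the end of the HIST1H2BK locus at 27114619, and their changes were -0.09 and -0.06. In 9 pairs both genes averaged at least 10 FPKM, and in the other 2 both were under 1 FPKM. The H2A change was the lower of the pair in 8 of those 9, with a median log2 change of -0.40 for the H2A genes and -0.13 for their H2B partners, and a median difference within pairs of -0.30. The widest of these gaps was in HIST2H2AC and HIST2H2BE, with changes of -0.55 and -0.13. HIST3H2A and HIST3H2BB had changes of -0.52 and -0.21, HIST1H2AI and HIST1H2BL of -0.43 and -0.09, and HIST1H2AK and HIST1H2BN of -0.62 and -0.34. HIST1H2AE and HIST1H2BG were both higher in siRNA, at 0.22 and 0.59. In the pair that went the other way, HIST1H2AG was at 0.09 and HIST1H2BJ at -0.07, and HIST1H2AD and HIST1H2BF were about equal at -0.16 each. These are comparisons of pooled values and were not tested.

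**Figure D4:**
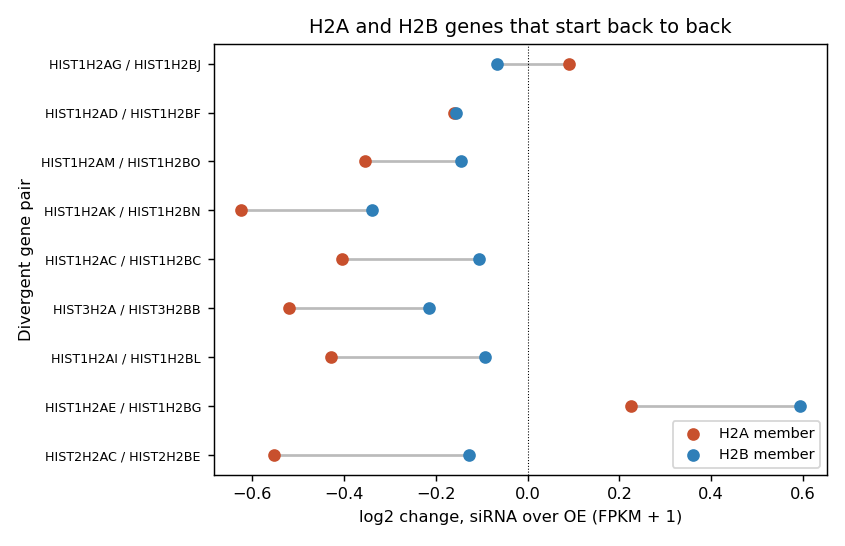
Each row is an H2A and H2B gene pair that starts back to back, with both members averaging at least 10 FPKM; the horizontal axis is the log2 change of FPKM + 1, siRNA over OE. The H2A point lies left of the H2B point in 8 of 9 rows, the exception being HIST1H2AG with HIST1H2BJ.

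The promoter motifs differed between the families. RefSeq gave promoters for 66 of the 89 members, and 250 bases before each start were searched on both strands; because H2A and H2B pairs share this stretch, a match can be counted for both genes. CCAAT was in all 6 H1, 16 H2A, 18 H2B and 13 H3 promoters but in 3 of 13 H4 promoters, where 32.0% of all 35116 promoters held it. The octamer ATTTGCAT, the binding sequence of OCT1, was in 14 of 18 H2B and 11 of 16 H2A promoters, in 1 H3 promoter, that of HIST1H3D, whose annotated start gives the same motif positions as that of the H2A gene HIST1H2AD, and in no H1 or H4 promoter, beside 1.63% of all promoters. The H4 element GGTCCG lay 40 to 50 bases before the start in 12 of 13 H4 promoters and in no promoter of the other families, beside 0.305% of all promoters. The H1 box AAACACA was in all 6 H1 promoters and in none of the other families, beside 4.82% of all promoters. TATAAA itself was in 10.7% of all promoters and in 45 of these 66, and its core TATAA 25 to 35 bases before the start in 3.57% of all promoters and in 50 of the 66.

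Promoters with a motif belonged to high and low genes alike. Of the 14 H2B promoters with an octamer, 8 belonged to genes averaging at least 10 FPKM and 4 to genes under 1 FPKM, while the 4 without the exact octamer, which include HIST1H2BD, all belonged to genes between 115 and 393 FPKM. Of the 12 H4 promoters with the H4 element near the start, 5 belonged to genes with at least 10 FPKM and 5 to genes under 1 FPKM. The exception, HIST1H4G, had a mean of 0.0970 FPKM. Among H4 promoters, 5 of the 9 with a TATAA core near the start belonged to genes with at least 10 FPKM. The 4 without it belonged to genes of at most 1.85 FPKM. These include the copies HIST2H4A and HIST2H4B, whose levels are uncertain, and HIST1H4I, which shares its deposited locus with HIST1H2BK. The last, HIST1H4G, has TATAAA at -42, outside the window. The abundant HIST1H4A and HIST1H4C had no promoter to search, so no link of this core to level can be read from these promoters. A match is a description of letters and not evidence that a factor is bound.

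**Figure D5:**
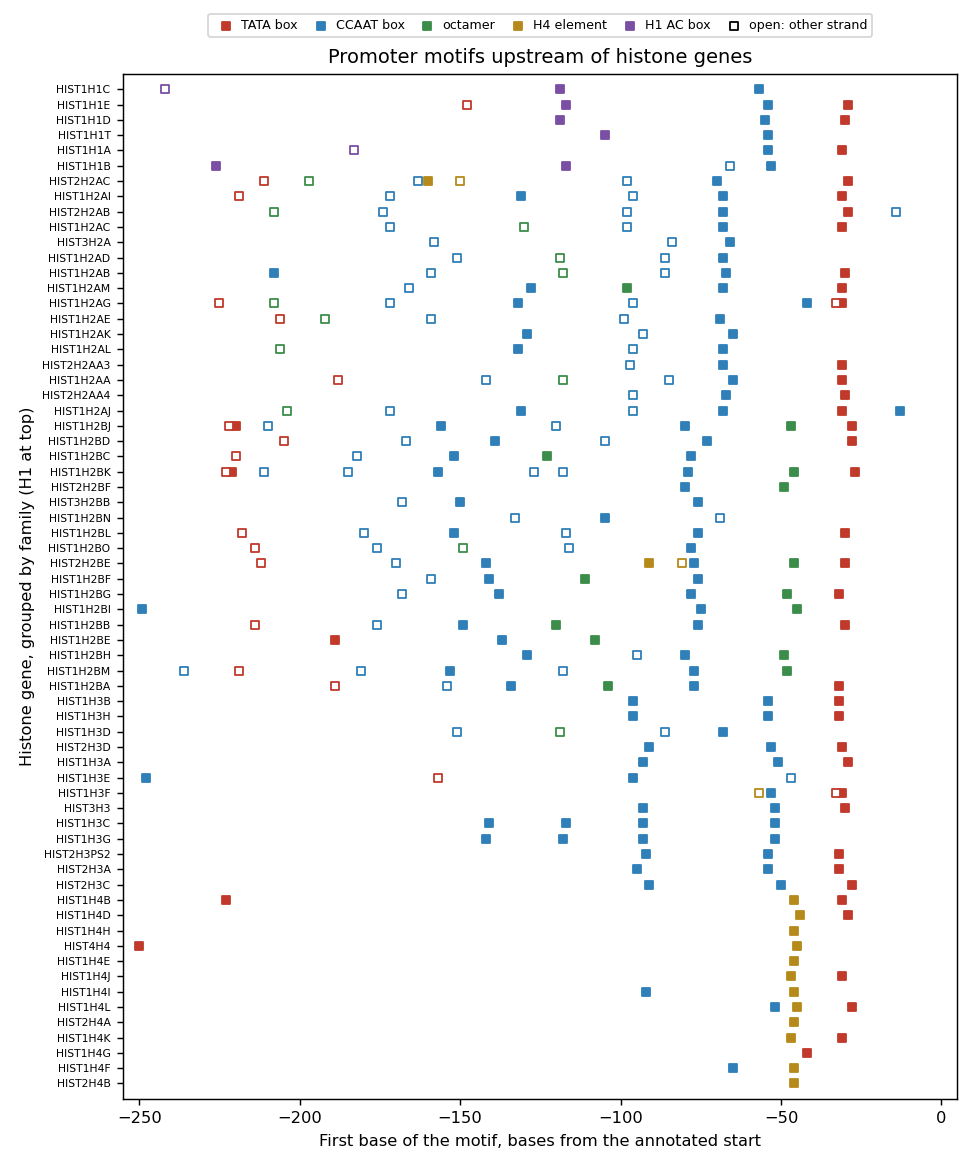
Each row is a histone gene with a RefSeq promoter, grouped by family; the horizontal axis is the first base of each match in bases from the annotated start, color gives the motif (TATAAA for the TATA box) and open squares are matches on the other strand. CCAAT boxes recur in the H1, H2A, H2B and H3 rows, the H4 element stands 40 to 50 bases before the start in 12 of 13 H4 rows, and the H1 AC box appears in the 6 H1 rows alone.

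Members were also split by whether the stem-loop pattern was in a record. Since a record can end before the stem-loop, this split cannot show whether the stem-loop bears on the change. Among tested members with at least 10 FPKM, the 20 with the pattern in a record had a median log2 change of -0.15, with 17 lower, and the 21 coding members without it -0.22, with 18 lower. Where the record ran more than 60 bases past the stem-loop, as a polyadenylated form would, 14 of 16 were lower with a median of -0.18. Where it ended within 60 bases, 3 of 4 were lower with a median of -0.08. These records are annotation of a later build, and the isoforms present in these cells were not measured.

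Histone transcripts are rich in G and C and short, and the values of other genes with these properties are given beside the result. Members with at least 10 FPKM had a median GC content of 57.4%, with quartiles of 48.0% and 60.6%, against 47.1% over 8107 other coding genes at that level. The 2930 of those genes within the members' quartile range of GC had a median log2 change of -0.02, and 52.8% of them were lower in siRNA, beside 0.09 over all 8107. The 315 other coding genes with a longest record of at most 1000 bases had a median of 0.09, with 38.4% lower; the members' median record was 509 bases. The members' median of -0.21, over all 41 of them, was below the medians of both sets. Neither set is matched to the members. The GC set covers their quartile range alone, and some members have records over 1000 bases, such as HIST1H2BN at 4137 bases. The part of GC or length in the result was not tested.

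Genes that process, transcribe and carry histones and the variant histones are read against the same shares of all tested genes, 0.572% called higher and 0.782% lower at q under 0.05, and 4.51% higher and 6.41% lower at an unadjusted p under 0.05. Of 48 tested genes for processing histone messages, 1 rose and 0 fell, while 7 were higher and 0 lower at an unadjusted p under 0.05. In all, 31 of the 48 were higher in siRNA and 17 lower, with a median log2 change of 0.13. Nearly all of them averaged at least 10 FPKM, where 41.8% of all tested genes were lower and the median was 0.08. At 1 FPKM or more, the filter for the medians of these lists, 49.7% of all tested genes were lower and the median was 0.0027. The gene that rose was NCBP2, the small subunit of the nuclear cap-binding complex, at 29.2 FPKM under OE and 47.0 FPKM under siRNA, 1.61-fold higher (q = 0.0418 in the authors' deposited table). Highest in level were SNRPB at 279 and 259 FPKM and SNRPE at 152 and 240 FPKM, which encode Sm ring proteins, the poly(A) polymerase PAPOLA at 142 and 200 FPKM, and LSM4 at 188 and 153 FPKM. SLBP, NPAT and RNU7-1 were picked for their roles after their values were seen. SLBP, the stem-loop binding protein, was at 58.7 and 61.0 FPKM, and NPAT, which activates histone transcription at the clusters, at 18.1 and 19.6 FPKM. RNU7-1, the U7 RNA that pairs with the histone message downstream of the stem-loop, was at 119.7 FPKM under OE and 35.3 FPKM under siRNA. It was not tested, and how many reads these values rest on is not given, so no change is read from them.

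Of 19 tested transcription genes 0 were called in either direction at q under 0.05, while 2 were higher and 1 lower at an unadjusted p under 0.05, and the median log2 change was 0.26. The kinase gene CDK2 was at 78.5 FPKM under OE and 83.1 FPKM under siRNA, ATM at 71.4 and 83.8 FPKM, and the DNA-binding factors YY1 at 58.4 and 79.4 FPKM and CUX1 at 51.4 and 57.5 FPKM. HINFP, the factor that binds the H4 element shown above, was picked for that role after its values were seen and was at 25.9 and 19.4 FPKM (p = 0.0664 in the authors' deposited table).

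Of 32 tested chaperone and deposition genes 1 fell and 0 rose, while 2 were higher and 1 lower at an unadjusted p under 0.05, with a median log2 change of 0.05. SSRP1, a subunit of the FACT complex that handles H2A and H2B dimers, was at 88.0 FPKM under OE and 53.3 FPKM under siRNA, 1.65-fold lower (q = 0.0218 in the authors' deposited table). SUPT16H, its partner in FACT, picked for that reason after its values were seen, was at 70.6 and 85.8 FPKM. The nucleolar chaperone NPM1 was at 1006 and 1480 FPKM, RBBP7, which binds H3 and H4, at 428 and 689 FPKM, the nucleolar protein NCL at 373 and 445 FPKM and NAP1L1 at 370 and 408 FPKM, none past the threshold.

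Variant histone genes lie outside the clusters and are mostly expressed throughout the cell cycle. None of 13 tested genes was called at q under 0.05, with 1 higher and 1 lower at an unadjusted p under 0.05, and 9 of the 12 averaging at least 1 FPKM were lower, with a median log2 change of -0.23. The H2A.Z genes were higher in siRNA, H2AFZ at 304 FPKM under OE and 358 FPKM under siRNA and H2AFV at 111 and 128 FPKM. H3F3B, which encodes H3.3, was at 305 and 301 FPKM and H2AFY, which encodes macroH2A, at 147 and 146 FPKM. The genes past the unadjusted threshold, named for that after their values were seen, were H2AFX, the damage-response H2A, at 138 and 97.9 FPKM (q = 0.142), and H3F3A, the other H3.3 gene, at 50.8 and 72.7 FPKM (q = 0.157), both q-values from the authors' deposited table.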

How the data were processed

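The authors deposited 1 Cuffdiff gene table with 1 FPKM per gene for each of 2 conditions and, from their 1 comparison, each gene's p-value and its q-value. TopHat, Cufflinks, Cuffdiff and the hg19 build are named per the submitters' processing notes; versions, settings, annotation and the use of strand were not stated there or in the labels. A gene was called where it was marked as tested and its deposited q-value was under 0.05. The members and gene lists were chosen with earlier results of these data known. The text names every called member, every member whose mean reached 10 FPKM, the 3 largest changes per family among tested members averaging 1 FPKM or more, and the called and 4 highest genes of each of 4 lists; others are said to be picked. Of the genes used to check the cell line, 1 is not reported here. Locus starts count from 0 in the table and were printed after adding 1. Changes used a pseudocount of 1 FPKM. All 89 members matched GENCODE 29 transcripts and RefSeq by symbol or synonym; 66 had promoters. The computations were tested on simulated data and run in Python 3.11.15 with numpy 2.4.6 and pandas 2.3.3.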

Additional observations from a re-analysis of the deposited data

How the results depend on the processing

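Of 102 recomputed values and counts, 85 stayed within 0.1 log2 or 1.5 times of the reported value and 17 moved. The 85 include settings that could not move, such as a count of 0 at q under 0.01 and the scaling described below, so their number is not a measure of stability. With no replicate spread, the tolerance of 0.1 was set by choice. The count of members called lower, 1, became 0 at q under 0.01, 2 at q under 0.1 and 12 at an unadjusted p under 0.05; the count called higher became 2 at q under 0.1 and 5 at an unadjusted p under 0.05. At q under 0.01 the calls of NCBP2 and SSRP1 were lost, leaving 0 higher processing genes and 0 lower chaperone genes. The H1 median over tested members averaging at least 1 FPKM, 0.56, turned to -0.069 at a mean of at least 10 FPKM, and was 0.27 with a pseudocount of 5 and 0.24 without the FPKM filter or without pseudogenes. The H2A median there, -0.35, was -0.22 over loci of at most 2000 bp. The H2B median went from -0.12 to -0.16 at that setting, within the tolerance, so these 2 family medians lay closer together. The log2 ratio of summed FPKM over those loci was -0.32 for H2A and -0.13 for H2B, beside -0.34 and -0.10 over all loci. The H4 median, -0.29, was -0.42 at a mean of at least 10 FPKM, and the HIST2 median, -0.32, was -0.51 at that mean and also over loci of at most 2000 bp. The HIST3 median, -0.42, was -0.52 with a pseudocount of 0.1 and -0.21 with a pseudocount of 5. Scaling used the median ratio of tested genes averaging at least 1 FPKM, which was 1.00, so it could not move a value past the tolerance. Scaling to genes averaging at least 10 FPKM, whose median log2 change was 0.08, was not run. The values that moved rest on few genes, and the cause was not tested. No paired analysis was possible because only pooled values per condition are given, and leaving out each replicate was not run for the same reason. Depth per sample is unknown, so low members and members listed at 0 carry no limit.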
